A study of Mus musculus with 8 samples.

Results

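This report describes 34 mouse genes of the ATF4 arm of the integrated stress response and of serine and one-carbon metabolism. ATF4 is known to induce several of the serine and one-carbon enzymes. Tendon stem cells (TSCs) were cultured for 4 days in low glucose medium with the vehicle DMSO (LG) or in high fat, high glucose medium (HFHG), which held more glucose and the saturated fatty acid palmitic acid. TSCs are adherent cells grown from the digested mouse patellar tendon, and each group had 4 biological replicates, each sequenced as 1 mRNA library. Glucose and palmitic acid were changed together, so their effects cannot be told apart. The genes were found in the table of expression values by their symbols, and all 34 were among its 19301 genes. The list of genes was selected on the expression values of these same HFHG and LG libraries. The difference between the groups is therefore given for these genes as a description, with no p-value. The fit over all genes included those above its filter, and the counts of them given from it at the end are no test of them.

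ATF4 is a transcription factor whose translation increases when a kinase phosphorylates the translation initiation factor eIF2. The kinases respond to unfolded protein in the endoplasmic reticulum (PERK, the product of Eif2ak3), to uncharged tRNA (GCN2, from Eif2ak4), to low haem (HRI, from Eif2ak1) and to double-stranded RNA (PKR, from Eif2ak2). Together with C/EBP partners, ATF4 induces genes of amino acid synthesis, uptake and tRNA charging, genes of serine synthesis and mitochondrial folate metabolism, and feedback genes that restore translation or favour cell death. mRNA levels do not show how strongly eIF2 was phosphorylated or ATF4 translated, and neither was measured here.

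Expression was deposited as FPKM, the fragments of a gene scaled by its length and by the size of the library. FPKM is relative to the whole library, so abundant genes that change shift the values of the others. The library totals recovered from the FPKM were 34308108 to 37362725 reads. Fold changes are HFHG minus LG on the log2(FPKM + 0.1) scale, where changes of genes with low FPKM come out too small, and SE stands for standard error. In a principal component analysis of the 11710 genes above the filter on low values (at least 0.5 FPKM in at least 4 libraries), the leading component (81% of the variance) separated HFHG from LG, and the next one (4.18%) set LG replicate 4 apart, at 13.8 against -7.93 to 2.49 in the other libraries.

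Markers of other cell types were read in the same libraries. Among 13 tendon and fibroblast markers, Col1a1 (529 ± 8.68 FPKM in HFHG and 206 ± 3.95 in LG, as mean ± SD with n = 4) and Dcn, the most abundant over all libraries (605 ± 16.0 and 609 ± 15.6), stood high. Dcn was not called (-0.01), and it was called higher in HFHG with quantile normalization (0.28). The tendon factor Scx lay between 0.983 and 2.88 FPKM and the tenocyte marker Tnmd between 0.220 and 1.19. Both were higher in HFHG by limma (0.61 for Scx, whose groups overlapped, and 0.86 for Tnmd). Tnmd had 211 reads in the HFHG libraries and 116 in the LG libraries, of which LG replicate 1 held 10. The paper reports decreased expression of both in HFHG medium by qPCR, and reports the change of TNMD at the protein level too. Of these 13 genes, 10 were higher and 2 were lower in HFHG at an adjusted p below 0.05 by limma, where 34.01% of all 11710 genes tested were higher and 30.82% were lower. Their summed FPKM was 2754 to 2798 in HFHG and 1749 to 1789.6 in LG. Macrophage markers were present. Lyz2, the most abundant of the 9, stood at 1662, 1638, 1633 and 1615 FPKM in HFHG replicates 1 to 4 and at 1736, 1751, 1761 and 1811 in LG, with Adgre1 at 26.5 ± 1.23 and 38.0 ± 1.28. Of the 8 above the filter, 7 were lower in HFHG and 0 were higher, C1qa most (-0.97, SE 0.048), and Cd163 was close to 0 (at most 0.0439 FPKM). Their summed FPKM was 1711 to 1762 in HFHG and 1875 to 1955 in LG. With quantile normalization the difference of Lyz2 was 0.01 in place of -0.11. Of the 5 endothelial markers, 3 were below the filter (Pecam1, Cdh5 and Kdr). Tek, the most abundant in HFHG, was higher (0.47, and 0.29 and not called with quantile normalization). Vwf, the most abundant in LG, was lower (-1.20). It passed the filter through LG alone, at 0.358 to 0.418 FPKM in HFHG and 0.925 to 1.09 in LG. The summed FPKM of the 5 was 1.52 to 1.64 in HFHG and 1.86 to 2.15 in LG. Of the 7 mural and muscle markers, 6 were in the table and 2 were above the filter, the abundant Acta2 (0.60) and Acta1 (-1.82), with a summed FPKM of 68.7 to 72.0 in HFHG and 47.4 to 51.6 in LG. All 4 adipocyte markers were below the filter, and their summed FPKM was at most 0.295. In these bulk libraries fewer cells of a type and less RNA per cell cannot be told apart, and the part that macrophage or other cells had in the values below was not tested.

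The promoter windows are shown because ATF4 is known to bind a composite C/EBP-ATF response element. RefSeq windows from 250 bases before to 50 bases after the gene start (GRCm38.p6) matched 30 of the 34 genes, with 36 windows in all. Eif4ebp1, Aldh1l2, Cth and Ndrg1 had no entry. Both strands were searched for the letters TGATGNAA (the core of the C/EBP-ATF response element), TGACGTCA (the cAMP response element) and CACGTG (the E-box). TGATGNAA stood in 8 of the 30 genes (Asns, Chac1, Fgf21, Jdp2, Nupr1, Pycr1, Trib3 and Vldlr), where 4.51% of all 27025 genes with a window held it, or 3.97% of 32851 windows. TGACGTCA stood in Ppp1r15a (2.03% of all genes), and CACGTG in Aldh18a1, Cbs, Fgf21 and Nupr1 (8.09% of all genes). A match of letters is a description and shows no binding, and a window without one says only that these letters are not in it. The windows below hold TGATGNAA in capitals (read on either strand), or TGACGTCA in the case of Ppp1r15a. They are Asns (chr6:7693160-7693459, minus strand), Trib3 (chr2:152344011-152344310, minus strand), Chac1 (chr2:119350992-119351291, plus strand), Nupr1 (chr7:126625421-126625720, minus strand), Ppp1r15a (chr7:45526219-45526518, minus strand), Pycr1 (chr11:120643699-120643998, minus strand) and Fgf21 (chr7:45615441-45615740, minus strand), each written 5′ to 3′ in the direction of the gene.
Asns: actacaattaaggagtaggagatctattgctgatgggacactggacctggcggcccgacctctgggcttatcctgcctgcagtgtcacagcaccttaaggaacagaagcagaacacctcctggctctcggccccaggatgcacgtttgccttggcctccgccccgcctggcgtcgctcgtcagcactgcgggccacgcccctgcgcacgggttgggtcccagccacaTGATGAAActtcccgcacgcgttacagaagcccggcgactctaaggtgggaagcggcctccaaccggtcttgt
Trib3: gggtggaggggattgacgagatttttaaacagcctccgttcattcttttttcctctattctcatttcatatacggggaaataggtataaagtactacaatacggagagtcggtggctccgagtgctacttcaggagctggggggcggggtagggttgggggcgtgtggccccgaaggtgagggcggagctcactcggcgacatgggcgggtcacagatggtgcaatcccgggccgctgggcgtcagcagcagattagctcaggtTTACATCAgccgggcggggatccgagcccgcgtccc
Chac1: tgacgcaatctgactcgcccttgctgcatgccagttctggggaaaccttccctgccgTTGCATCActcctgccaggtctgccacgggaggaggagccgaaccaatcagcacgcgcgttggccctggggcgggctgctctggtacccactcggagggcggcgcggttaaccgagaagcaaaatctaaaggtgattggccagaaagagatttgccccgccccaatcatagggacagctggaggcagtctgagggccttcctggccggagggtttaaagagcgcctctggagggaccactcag
Nupr1: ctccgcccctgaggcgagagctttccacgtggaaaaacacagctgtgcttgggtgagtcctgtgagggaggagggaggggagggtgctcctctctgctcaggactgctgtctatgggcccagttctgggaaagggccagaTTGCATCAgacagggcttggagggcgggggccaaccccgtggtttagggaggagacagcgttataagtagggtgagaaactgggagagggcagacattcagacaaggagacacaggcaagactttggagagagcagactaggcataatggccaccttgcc
Ppp1r15a: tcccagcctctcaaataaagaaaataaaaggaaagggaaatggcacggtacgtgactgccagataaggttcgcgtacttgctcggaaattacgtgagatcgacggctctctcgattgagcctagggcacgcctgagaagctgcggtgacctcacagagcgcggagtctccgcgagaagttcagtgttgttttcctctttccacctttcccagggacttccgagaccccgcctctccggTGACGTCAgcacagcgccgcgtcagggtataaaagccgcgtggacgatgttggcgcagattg
Pycr1: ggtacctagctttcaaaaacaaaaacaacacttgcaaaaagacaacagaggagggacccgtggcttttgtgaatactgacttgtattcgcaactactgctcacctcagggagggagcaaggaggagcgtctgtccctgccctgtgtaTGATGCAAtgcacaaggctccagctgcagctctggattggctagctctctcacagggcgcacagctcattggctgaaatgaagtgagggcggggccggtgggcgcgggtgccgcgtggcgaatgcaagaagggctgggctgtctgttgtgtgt
Fgf21: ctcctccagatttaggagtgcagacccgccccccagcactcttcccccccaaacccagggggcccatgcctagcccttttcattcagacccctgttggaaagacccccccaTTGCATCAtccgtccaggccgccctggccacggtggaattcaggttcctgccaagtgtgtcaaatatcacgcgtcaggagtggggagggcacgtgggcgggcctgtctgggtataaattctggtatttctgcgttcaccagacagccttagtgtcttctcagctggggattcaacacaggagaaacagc

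In Asns, the gene of asparagine synthetase, the match TGATGAAA began 23 bases before the start. Trib3 carried TTACATCA, a match on the other strand, 14 bases after its start, and Chac1, Nupr1 and Fgf21 carried TTGCATCA 193, 110 and 139 bases before theirs. Pycr1 carried TGATGCAA 103 bases before its start, and the palindrome of Ppp1r15a began 12 bases before its start. Among the genes with the TGATGNAA letters, Trib3 (-1.81), Chac1 (-0.94), Asns (-0.66), Vldlr (-0.51), Nupr1 (-0.40) and Jdp2 (-0.15) were lower in HFHG. Pycr1 (0.89) and Fgf21 (1.505) were higher. The groups overlapped in Jdp2 and Fgf21, and Fgf21 would have passed the filter through HFHG alone. Nothing is read from these directions, since the genes were selected on this contrast.

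**Figure D1:**
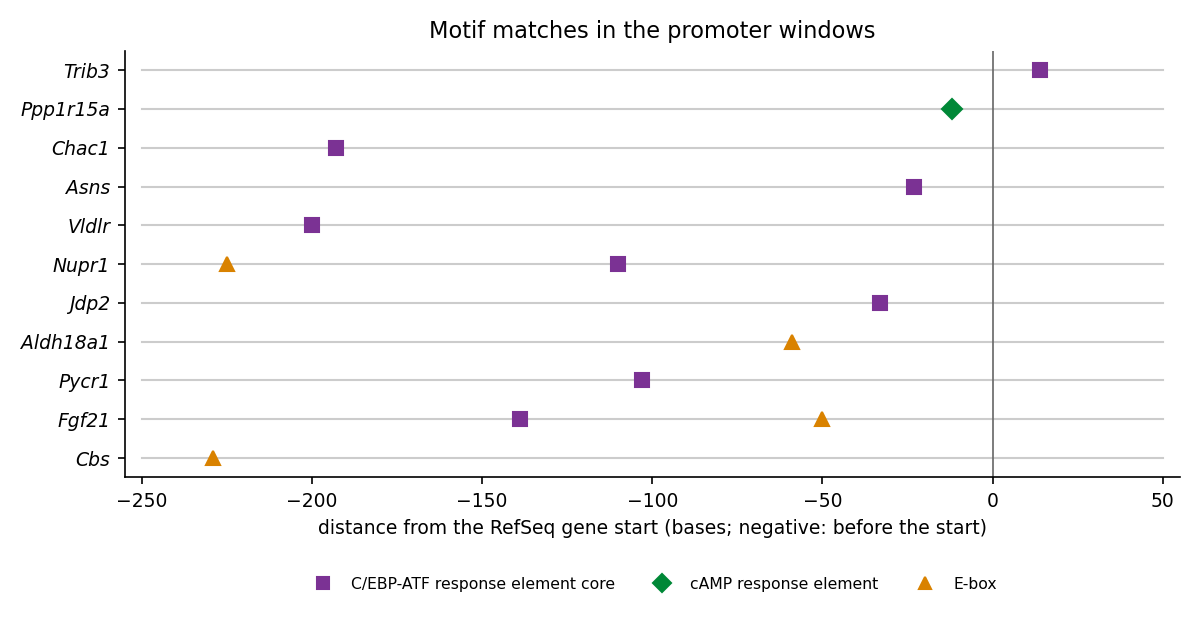
Position of each motif match (x axis, bases from the RefSeq gene start, 0 at the start) in the promoter windows of the 11 genes that hold any of the motifs, ordered from the lowest to the highest log2 fold change, with Cbs, which was below the filter, last. Squares mark TGATGNAA, diamonds TGACGTCA and triangles CACGTG, and the 8 squares lie between 200 bases before and 14 bases after the start.

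Most of the 34 genes had lower mRNA in HFHG than in LG. Cbs, which makes cystathionine, was below the filter on low values, and 33 genes were above it. Of the 33, 28 had a log2 fold change below 0 and 5 above it, where 48.0% of all genes tested were below 0. In 29 of the 33 genes the 4 HFHG values and the 4 LG values did not overlap (59.23% of all genes tested), 26 of them with HFHG below LG. A log2 fold change past 1 in either direction was reached by 10 of them (5.337% of all genes tested), 9 of them lower. The median log2 fold change was -0.64 over the 33 genes and 0.02 over all genes tested, and the 33 ranged from -2.34 (Cth) to 1.505 (Fgf21). Nothing is read from these counts, since the genes were selected on this contrast. Shmt1 and Fgf21 reached the filter only in part: Shmt1 was at or above 0.5 FPKM in 4 LG and 2 HFHG libraries, and Fgf21 in 4 HFHG and 2 LG libraries, so each would have passed through its higher group alone.

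**Figure D2:**
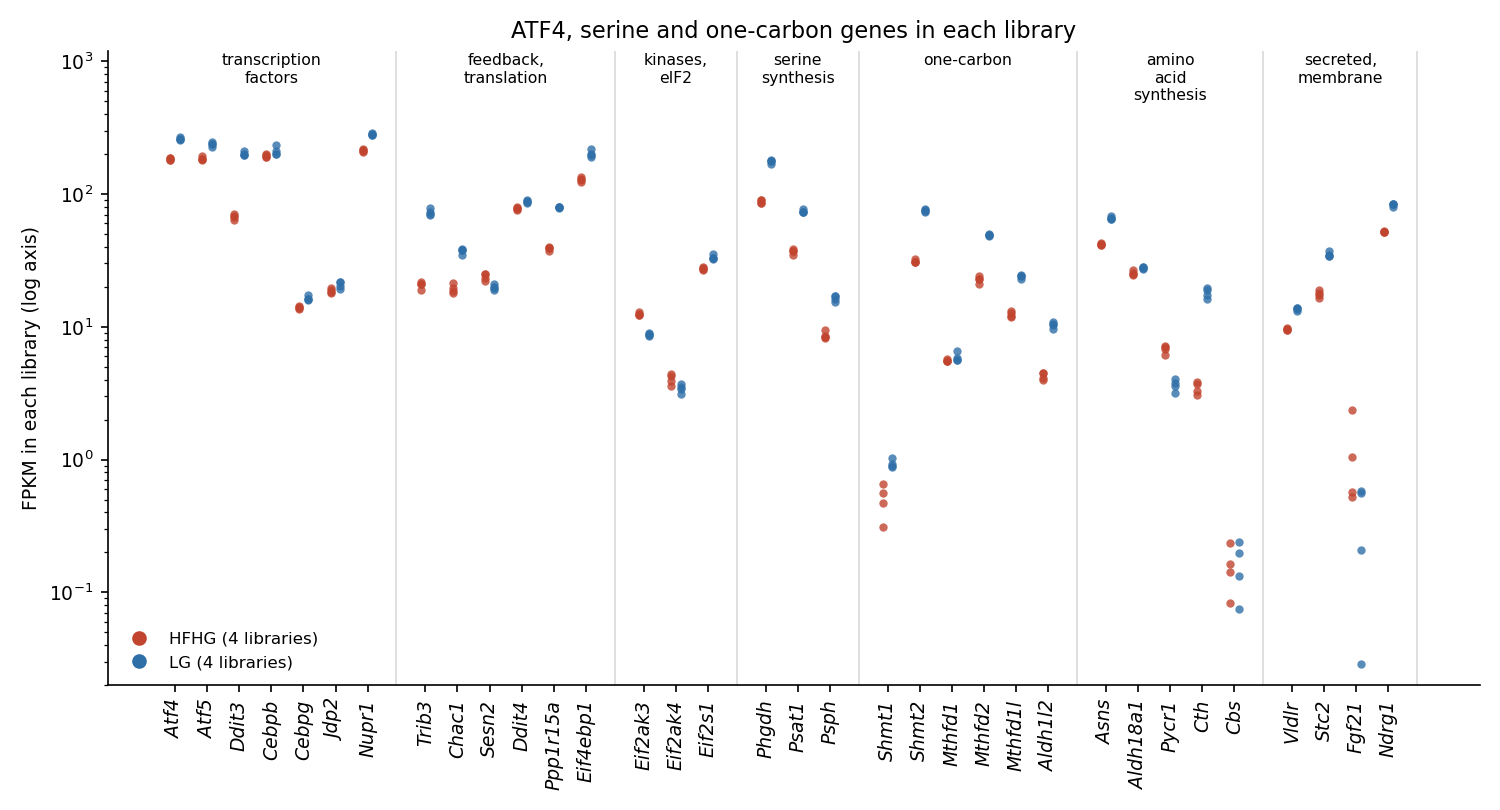
FPKM of the 34 genes in each of the 8 libraries on a log axis, grouped by role, with HFHG in red and LG in blue (1 point per library). The points of the groups lie apart in most genes, and they mix in Mthfd1, Eif2ak4, Jdp2, Fgf21 and Cbs.

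All 7 transcription factors had a log2 fold change below 0, where 48.0% of all genes tested did, and nothing is read from this count. Atf4, Atf5, Cebpb and Nupr1 were the most abundant of the 34 genes. Atf4 itself (NCBI gene 11911, chromosome 15 of GRCm38, 80255184 to 80257541) stood at 188, 187, 182 and 181 FPKM in HFHG replicates 1 to 4 and at 260.1, 254, 260.0 and 269.8 in LG replicates 1 to 4. Each HFHG library was below each LG library, and the log2 fold change was -0.50 (SE 0.025). Ddit3 encodes CHOP, a C/EBP-family factor that ATF4 induces and that is tied to cell death under lasting stress (chromosome 10, 127290774 to 127296288). Its FPKM was 71.1, 63.3, 68.0 and 67.6 in HFHG and 199, 196, 196 and 212 in LG. The groups lay far apart, with a log2 fold change of -1.57 (SE 0.037), the largest among the factors. Atf5, a relative of Atf4 that is also controlled at translation, had 183, 192, 182 and 182 FPKM in HFHG and 239, 228, 239 and 249 in LG, and did not overlap either (-0.37, SE 0.030). Nupr1, a small stress-induced chromatin protein, stood above all others in both groups, at 214 ± 3.93 FPKM in HFHG and 282 ± 4.51 in LG (-0.40, SE 0.022). The partner Cebpg, which dimerizes with ATF4, was at 14.0 ± 0.284 FPKM in HFHG and 16.5 ± 0.665 in LG, with LG replicate 1 at 17.5 above the other LG libraries (-0.23, SE 0.039).

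Cebpb and Jdp2 differed little between the groups. For Cebpb the FPKM was 198, 199, 188 and 189 in HFHG and 211, 201, 200.2 and 233 in LG, and the log2 fold change was -0.13 (SE 0.043). LG replicate 4 was the highest, and the lowest LG value was just above the highest HFHG value. The difference ran from -0.14 to -0.03 over the alternatives, nearest to 0 with quantile normalization, and was -0.08 without LG replicate 4. Jdp2, a repressor that binds the same sites as ATF factors, was at 19.0, 17.9, 18.2 and 19.5 FPKM in HFHG and 20.1, 21.7, 19.1 and 21.9 in LG. Its groups overlapped (-0.15, SE 0.048), and the difference was -0.09 after each library was rescaled to the same sum. The exons of Cebpb share 312 of their 1504 bases with Tmem189 on the other strand, and those of Ddit3 share 68 of 1713 with the methionyl-tRNA synthetase gene Mars1. In all, 9 of the 34 genes share exon bases with another gene of the table, which matters where the counting did not use the strand.

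The feedback genes were led by Trib3, a pseudokinase that binds ATF4 and CHOP and that both induce (chromosome 2, 152337422 to 152344032). Its FPKM was 21.8, 18.9, 21.1 and 21.0 in HFHG and 73.1, 71.3, 69.96 and 77.8 in LG, and no library of either group came near the other group. The log2 fold change was -1.81 (SE 0.047). Ppp1r15a, the gene of GADD34, which brings a phosphatase to eIF2 and so ends the response, was at 39.7, 39.1, 39.1 and 37.6 FPKM in HFHG and 79.9, 78.6, 80.0 and 80.5 in LG. These values were tight in both groups (-1.03, SE 0.027). Chac1, which degrades glutathione and is a common readout of ATF4 and CHOP, was at 19.7, 21.3, 17.9 and 18.6 FPKM in HFHG and 37.7, 34.5, 38.0 and 38.6 in LG, again without overlap (-0.94, SE 0.054).

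Genes that restrain mTORC1 or cap-dependent translation did not all share a direction. Eif4ebp1 encodes 4E-BP1, which holds the cap-binding protein eIF4E, and it was lower in HFHG at 129 ± 4.54 against 201 ± 11.8 FPKM (-0.64, SE 0.040). Ddit4, an mTORC1 inhibitor also known as REDD1, had 77.8 ± 1.55 FPKM in HFHG and 87.7 ± 1.97 in LG, a small difference without overlap (-0.17, SE 0.026, and -0.11 with quantile normalization and -0.11 after rescaling to the same sum). Sesn2, the leucine-binding mTORC1 inhibitor, was higher. Its FPKM was 24.9, 25.0, 23.4 and 22.3 in HFHG and 20.9, 19.9, 19.6 and 18.9 in LG, and the groups did not overlap (0.27, SE 0.045).

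Upstream of ATF4, the eIF2 kinases on the list were higher in HFHG and an eIF2 subunit was lower. Eif2ak3 (PERK) stood at 12.9, 12.4, 12.3 and 12.2 FPKM in HFHG and 8.496, 8.93, 8.66 and 8.77 in LG, with HFHG above LG throughout (0.51, SE 0.041). Eif2ak4 (GCN2) was at 3.56, 3.89, 4.22 and 4.44 FPKM in HFHG and 3.51, 3.69, 3.41 and 3.11 in LG. HFHG replicate 1 lay among the LG values, and the difference was small (0.22, SE 0.080). It ran from 0.14 with quantile normalization to 0.28 after rescaling to the same sum. Eif2s1, the eIF2 subunit that the kinases phosphorylate, was at 27.4 ± 0.532 FPKM in HFHG and 33.3 ± 1.28 in LG (-0.28, SE 0.034).

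A wider list of 20 genes of the same machinery (the remaining kinases, eIF2 and eIF2B subunits and their regulators), chosen with earlier results of these data known, was tested with limma. Of these, 8 rose (against 34.01% of all genes tested), 8 fell (against 30.82%) and 4 were not called, with a median log2 fold change of 0.00 that changed sign with the scaling. The number that rose was 4 to 9 over the alternatives, lowest without LG replicate 4. Eif2ak2 (PKR) rose from 18.6 ± 1.004 to 25.0 ± 0.834 FPKM (0.42, limma adjusted p = 2.22e-06, HFHG above LG in every library), while Eif2ak1 (HRI) was at 18.2 ± 0.870 in HFHG and 17.5 ± 0.268 in LG (0.06, limma adjusted p = 0.192). Eif2ak1 passed 0.05 without HFHG replicate 4, and when each library was rescaled to the same sum. Dnajc3, a chaperone known as an inhibitor of PERK, fell most, from 66.6 ± 2.16 to 34.8 ± 0.524 FPKM (-0.93, limma adjusted p = 4.26e-11). Impact, which restrains the activation of GCN2, fell by 0.47 on the log2 scale (limma adjusted p = 2.85e-06). Oma1, the mitochondrial protease that signals to HRI, had 0.32 (limma adjusted p = 0.0344, from 0.00312 to 0.174 over the alternatives), and its groups overlapped. With quantile normalization it was 0.19.

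**Figure D3:**
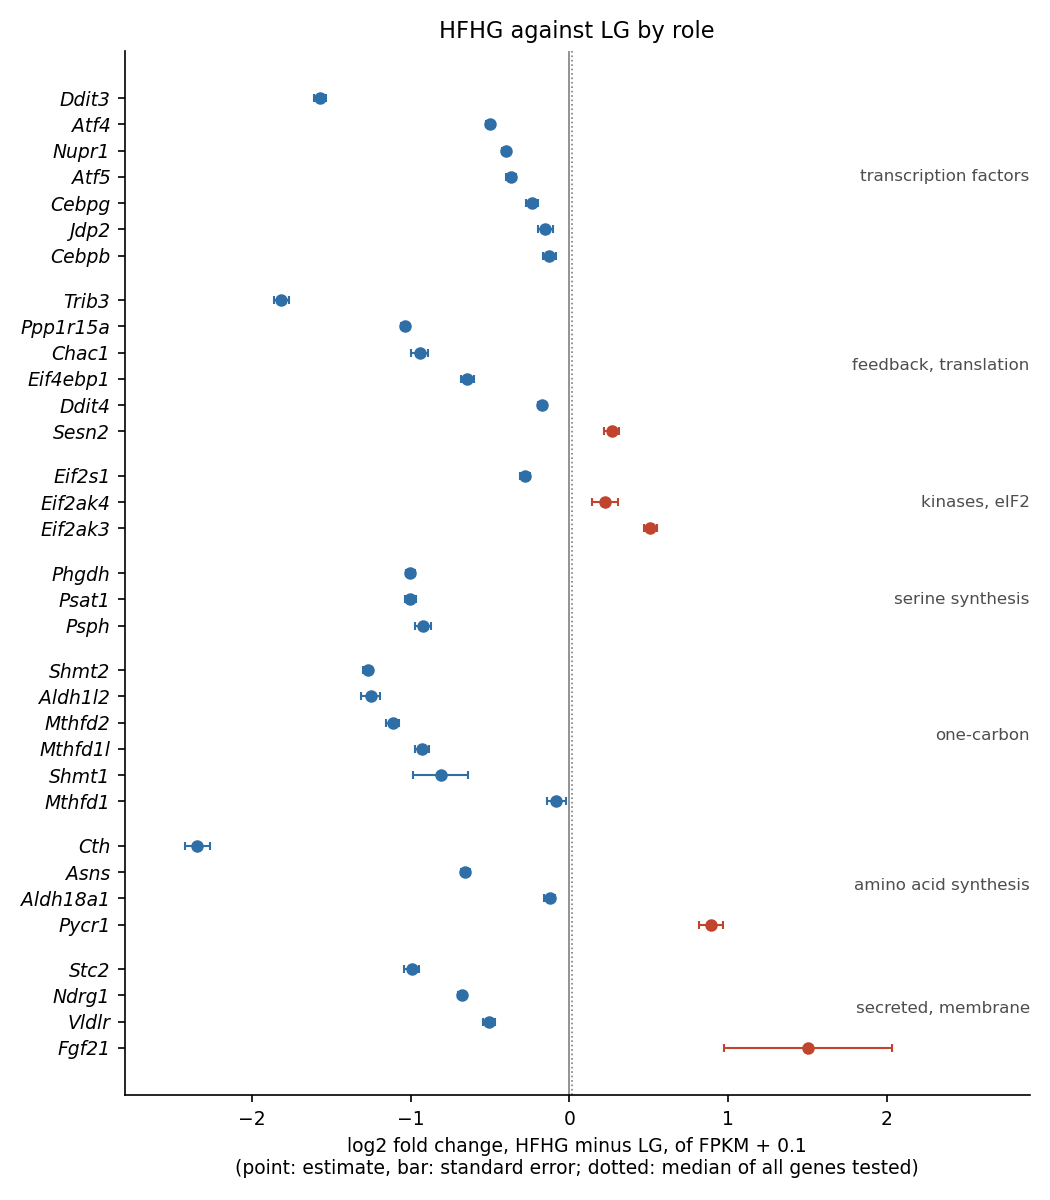
Log2 fold change (HFHG minus LG, of FPKM + 0.1) of the 33 genes above the filter, by role, with bars for the SE. Red points are above 0 and blue points below, and the dotted line is the median of all genes tested (0.02). Sesn2, Eif2ak3, Eif2ak4, Pycr1 and Fgf21 lie to the right of 0.

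The 3 enzymes that make serine from the glycolytic intermediate 3-phosphoglycerate differed by nearly the same factor. Phgdh, the enzyme of the entry step (NCBI gene 236539, chromosome 3, 98313170 to 98339990), stood at 90.1, 85.2, 86.3 and 89.8 FPKM in HFHG and at 177, 169.6, 177 and 181 in LG. Psat1, the transaminase that follows it, was at 37.3, 34.8, 37.5 and 38.9 FPKM in HFHG and 73.9, 73.1, 73.7 and 76.8 in LG. Psph, the phosphatase of the last step, was at 8.48, 8.30, 9.43 and 8.34 FPKM in HFHG and 17.0, 15.5, 17.2 and 16.2 in LG. In all 3 genes every HFHG library was below every LG library (59.23% of all genes tested did not overlap, in either direction). The log2 fold changes were -1.003 (SE 0.028), -1.002 (SE 0.035) and -0.92 (SE 0.052). Within each group the level ran from Phgdh to Psat1 to Psph, in order of the pathway, and the ranges of the genes did not overlap. Phgdh has 1 annotated pseudogene named after it, and the exons of Psph share 452 of 4329 bases with Cct6a on the other strand.

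Serine feeds its carbon into folate through serine hydroxymethyltransferase, which has a mitochondrial form (Shmt2) and a cytosolic form (Shmt1). Shmt2 (NCBI gene 108037, chromosome 10, 127517123 to 127522444) stood at 31.0, 30.9, 32.2 and 30.9 FPKM in HFHG and 76.1, 75.2, 73.9 and 76.8 in LG. The values were tight, apart from HFHG replicate 3, and the log2 fold change was -1.27 (SE 0.027). Shmt1 was far less abundant, at 0.560, 0.656, 0.472 and 0.313 FPKM in HFHG and 0.877, 1.03, 0.895 and 0.918 in LG, with 222 and 403 reads in all in the 4 libraries of each group. Its groups did not overlap, and its difference was less precise (-0.81, SE 0.17, and -0.37 with a pseudocount of 1 in place of 0.1).

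The later mitochondrial steps were lower as well. Mthfd2, the mitochondrial dehydrogenase and cyclohydrolase, was at 23.0, 21.2, 22.7 and 24.3 FPKM in HFHG and 49.8, 48.6, 49.6 and 49.5 in LG (-1.11, SE 0.039). Mthfd1l, which releases formate from the mitochondria, was at 13.2, 12.8, 11.9 and 12.0 FPKM in HFHG and 24.0, 24.4, 22.8 and 24.1 in LG (-0.93, SE 0.043). Aldh1l2, which oxidizes the one-carbon unit to CO2 in the mitochondria, was at 4.12, 3.97, 4.52 and 4.51 FPKM in HFHG and 10.2, 10.9, 10.6 and 9.60 in LG (-1.25, SE 0.060). None of the 3 overlapped between the groups, where 59.23% of all genes tested did not overlap. The exons of Aldh1l2 share 1056 of 7503 bases with D10Wsu102e on the other strand, and those of Shmt1 share 184 of 3883 with Smcr8. Mthfd1, the cytosolic enzyme with the matching activities, was at 5.55, 5.54, 5.71 and 5.51 FPKM in HFHG and 6.62, 5.59, 5.62 and 5.86 in LG, and its groups overlapped (-0.08, SE 0.061). It was -0.15 with quantile normalization, -0.02 after rescaling to the same sum and -0.03 without LG replicate 1. No test of the difference between the mitochondrial and cytosolic enzymes was made, since both were selected on the contrast.

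**Figure D4:**
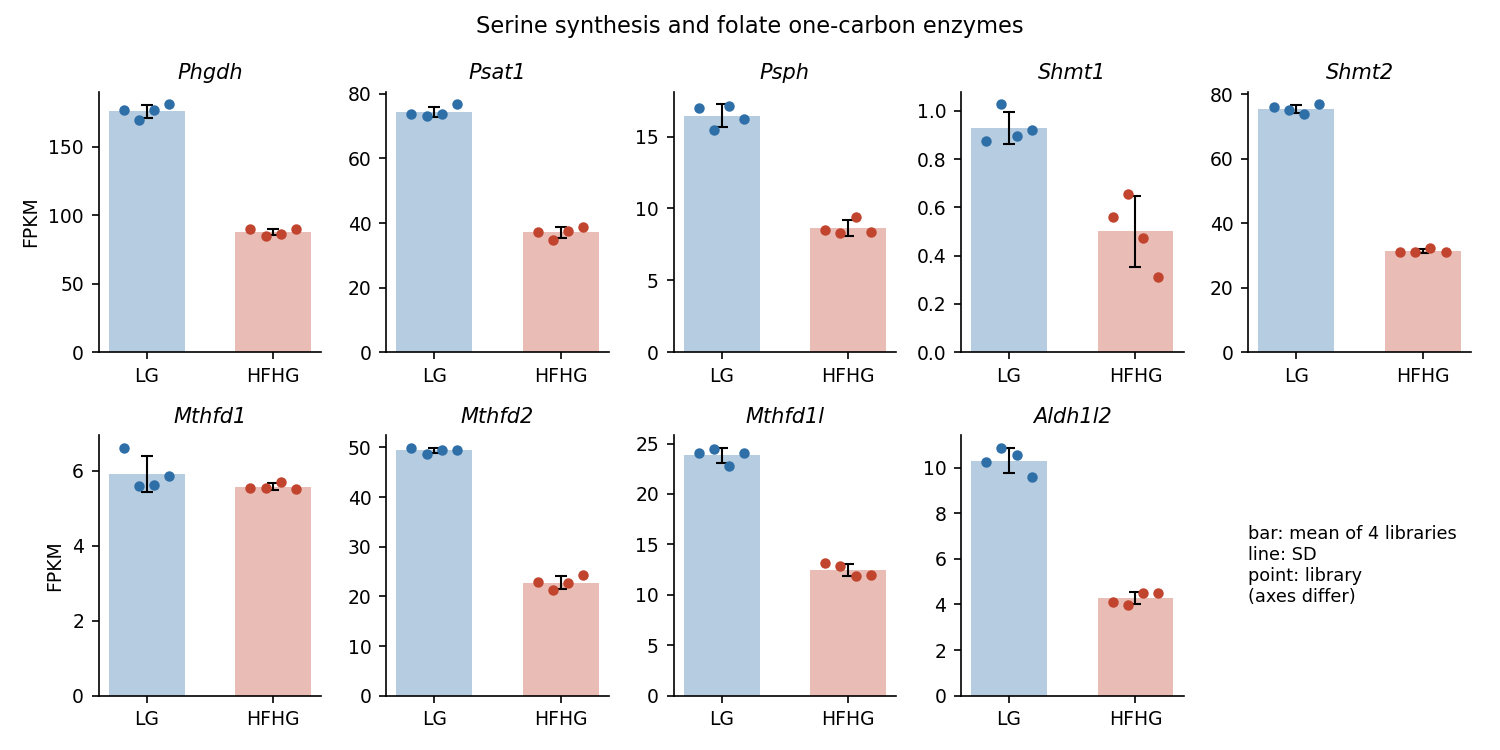
FPKM of the 9 serine synthesis and folate one-carbon enzymes in LG (blue) and HFHG (red), with bars for the mean of 4 libraries, lines for the SD and a point per library. The y axes start at 0 and differ between panels. HFHG lies below LG without overlap in each panel except Mthfd1.

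A list of 32 other folate and methionine cycle genes, chosen with earlier results known, was tested with limma. Of the 27 above the filter, 15 fell (against 30.82% of all genes tested), 4 rose (against 34.01%) and 8 were not called, with a median log2 fold change of -0.21. Mtrr, which keeps methionine synthase active, fell from 7.04 ± 0.544 to 4.05 ± 0.261 FPKM (-0.78, limma adjusted p = 5.69e-07). Aldh1l1, the cytosolic counterpart of Aldh1l2, fell by 0.74 on the log2 scale, from 4.83 ± 0.385 to 2.85 ± 0.181 FPKM (limma adjusted p = 2.01e-06). Atic, of purine synthesis, and Mat2a, which makes S-adenosylmethionine, fell by 0.60 and 0.53 (limma adjusted p = 9.11e-09 and 2.58e-08). None of these 4 overlapped between the groups, and 17 of the 27 did not (59.23% of all genes tested).

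Tyms, which makes thymidylate, was at 1.54, 1.499, 1.64 and 1.54 FPKM in HFHG and 1.67, 1.74, 1.99 and 2.41 in LG, without overlap (-0.30, limma adjusted p = 0.0308, from 0.00563 to 0.0811 over the alternatives). It lost the call without LG replicate 4 (-0.20), among other settings. In the list of 22 cell cycle genes, 20 were above the filter, 5 fell (against 30.82% of all genes tested), 3 rose (against 34.01%) and 12 were not called, with a summed FPKM of 89.9 to 93.6 in HFHG and 97.1 to 101 in LG. Mcm2 (-0.94, limma adjusted p = 6.71e-08), Pcna (-0.53, limma adjusted p = 9.47e-08) and Mcm5 (-0.51, limma adjusted p = 0.00613, with overlap) fell. They act in DNA replication, and Mcm5 was at -0.31 with a pseudocount of 1. Of the other Mcm genes of the list, Mcm3 fell (-0.40), and Mcm4 (0.19), Mcm6 (-0.20) and Mcm7 (-0.09) were not called. Rrm2, of ribonucleotide reductase, rose (0.61, limma adjusted p = 5.26e-07), as did Cdk1 (0.48) and E2f1 (0.24). Mki67, a marker of cycling cells, was below the filter at 0.475, 0.451, 0.435 and 0.464 FPKM in HFHG and 0.393, 0.533, 0.370 and 0.340 in LG (p = 0.286, exact two-sided permutation test over 70 arrangements). The part of cell division in the values of the one-carbon genes was not tested.

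Cth had the lowest log2 fold change of the 33 genes. It encodes cystathionine gamma-lyase, which makes cysteine from cystathionine (NCBI gene 107869, chromosome 3, 157894248 to 157925077). The FPKM was 3.28, 3.09, 3.70 and 3.81 in HFHG and 17.3, 16.2, 19.5 and 19.0 in LG. Each LG library was far above each HFHG library (-2.34, SE 0.077). Cbs, the enzyme before it in transsulfuration, was barely detected, at 0.237, 0.0835, 0.164 and 0.142 FPKM in HFHG and 0.0754, 0.132, 0.240 and 0.197 in LG. That is 62 reads in the HFHG libraries and 62 in the LG libraries, and the groups overlapped.

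Asns, which makes asparagine, was at 41.0, 43.1, 42.2 and 41.5 FPKM in HFHG and 64.7, 65.3, 66.5 and 68.4 in LG, with no overlap (-0.66, SE 0.029). In proline synthesis, the enzymes of successive steps differed in direction. Aldh18a1, which starts the path from glutamate, was at 26.7, 24.6, 25.1 and 25.4 FPKM in HFHG and 27.1, 27.9, 28.0 and 28.1 in LG, with a narrow gap between the groups (-0.12, SE 0.034). After rescaling to the same sum the difference was -0.07. Pycr1, the mitochondrial reductase that completes proline (NCBI gene 209027, chromosome 11, 120635712 to 120643769), was at 7.09, 7.18, 6.17 and 6.85 FPKM in HFHG and 4.01, 3.78, 3.58 and 3.19 in LG, with HFHG above LG throughout (0.89, SE 0.077).

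Of 23 genes next to these in amino acid metabolism (21 enzymes and the serine transporters Sfxn1 and Sfxn3), chosen with earlier results known, 21 were above the filter. By limma 8 fell (against 30.82% of all genes tested), 7 rose (against 34.01%) and 6 were not called, with a median of -0.04 that turned to 0.02 after rescaling of each library to the same sum. Cdo1, which oxidizes cysteine, fell from 32.5 ± 1.18 to 11.3 ± 0.640 FPKM (-1.51, limma adjusted p = 2.18e-11), and the subunits of the enzyme that starts glutathione synthesis from cysteine, Gclc and Gclm, fell by 1.04 and 0.78 on the log2 scale (limma adjusted p = 1.52e-10 and 6.9e-11). Glul, glutamine synthetase, rose from 29.1 ± 0.917 to 53.6 ± 0.980 FPKM (0.88, limma adjusted p = 9.81e-11). These 4 genes did not overlap between the groups, nor did 15 of the 21 as a whole (59.23% of all genes tested). Prodh, which degrades proline and was below the filter, was at 0.296, 0.1504, 0.0796 and 0.179 FPKM in HFHG and 0.477, 0.541, 0.786 and 0.529 in LG. The exact two-sided permutation test gave p = 0.0286, its lower bound with 70 arrangements, and p = 0.143 after Benjamini-Hochberg adjustment over the 10 companion genes below the filter. It is named for this p, the lowest of the 10 together with Slc7a3, and the other 8 had p from 0.143 to 0.657.

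Among the genes of secreted and membrane proteins, Stc2, a secreted glycoprotein hormone that ATF4 induces, was at 16.4, 18.8, 17.2 and 17.8 FPKM in HFHG and 34.5, 34.2, 34.3 and 37.3 in LG (-0.99, SE 0.045). LG replicate 4 was the highest of its group, and the groups lay well apart. Ndrg1, which responds to hypoxia and to stress, was at 52.1 ± 0.440 FPKM in HFHG and 83.3 ± 1.93 in LG (-0.68, SE 0.026), and Vldlr, the receptor of very low density lipoprotein, at 9.60 ± 0.205 FPKM in HFHG and 13.7 ± 0.308 in LG (-0.51, SE 0.039). Neither overlapped between the groups, where 59.23% of all genes tested did not overlap.

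Fgf21, a hormone that many cells secrete under metabolic stress, was low and variable. The HFHG libraries held 37, 19, 81 and 18 reads of it, which is 1.05, 0.567, 2.38 and 0.520 FPKM. The LG libraries held 19, 1, 7 and 19 reads, which is 0.585, 0.0291, 0.209 and 0.564 FPKM. HFHG replicate 3 was the highest and LG replicate 2 the lowest, and HFHG replicates 2 and 4 lay within the range of LG. The log2 fold change of 1.505 had an SE of 0.53, the largest of the 33. It ran from 1.002 (without LG replicate 2) to 1.80 (without LG replicate 1) when single libraries were left out, and from 0.60 with a pseudocount of 1 to 2.01 with a pseudocount of 0.01.

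Other genes that ATF4 or CHOP is known to induce made a list of 29, also chosen with earlier results known. Of the 28 above the filter, 24 fell, 2 rose and 2 were not called by limma, with a median log2 fold change of -0.63, where 30.82% of all genes tested fell and 34.01% rose. Whether the list differs from other genes was not tested. Slc7a11, the cystine importer, fell from 10.5 ± 1.24 to 3.43 ± 0.122 FPKM (-1.58, limma adjusted p = 2.07e-09), and its partner chain Slc3a2 from 34.4 ± 1.26 to 13.8 ± 0.569 (-1.31, limma adjusted p = 2.52e-11). Slc6a9, a glycine transporter, fell by 1.55 on the log2 scale (limma adjusted p = 4.31e-10). Ero1a, the oxidase of disulfide formation, which hypoxia also induces, was at 203, 201, 204 and 204 FPKM in HFHG and 589, 607, 599 and 555 in LG (-1.53, limma adjusted p = 2.68e-13). Atf3, the stress factor, fell by 0.76 (limma adjusted p = 8.37e-08). None of these 5 genes overlapped between the groups, and 24 of the 28 did not (59.23% of all genes tested).

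Gdf15, a secreted stress hormone, was slightly higher. Its FPKM was 31.1, 33.0, 30.9 and 31.8 in HFHG and 29.3, 27.2, 27.4 and 32.3 in LG, and the groups overlapped through LG replicate 4. The difference was small (0.13 on the log2 scale, limma adjusted p = 0.038, from 0.00126 to 0.109 over the alternatives). The other gene that rose was Mars1 (0.44, limma adjusted p = 4.94e-07), which overlaps Ddit3 and was named after its values were seen. Slc7a3, an arginine transporter below the filter, was at 0.108, 0.0833, 0.113 and 0.0504 FPKM in HFHG and 0.209, 0.3297, 0.229 and 0.295 in LG (p = 0.0286 in the exact two-sided permutation test, 0.143 after adjustment over 10 genes).

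The other arms of the unfolded protein response, led by IRE1 with XBP1 and by ATF6, were read from 19 genes. By limma 16 fell (against 30.82% of all genes tested), 2 rose (against 34.01%) and Xbp1 was not called, with a median log2 fold change of -0.42. Of the 2 that rose, 1 was not called in some settings, such as median-ratio scaling. Hspa5, the chaperone BiP and the most abundant of them, was at 901, 893, 892 and 907 FPKM in HFHG and 1857, 1859, 1869.5 and 1834 in LG (-1.05, limma adjusted p = 2.35e-13). The largest falls were those of Sdf2l1, from 142 ± 9.30 to 40.7 ± 0.896 FPKM (-1.80, limma adjusted p = 2.04e-12), Creld2 (-1.34, limma adjusted p = 4.66e-12), Pdia4 (-1.32, limma adjusted p = 2.69e-13) and Hyou1 (-1.23, limma adjusted p = 2.68e-13), all chaperones or folding helpers of the endoplasmic reticulum. None of these 5 overlapped, and 18 of the 19 did not (59.23% of all genes tested). Xbp1, whose mRNA is spliced by IRE1, was at 68.6, 67.7, 65.8 and 65.0 FPKM in HFHG and 65.0, 67.2, 69.7 and 72.1 in LG, with overlap (-0.04, limma adjusted p = 0.376). FPKM per gene does not separate its spliced from its unspliced form.

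Mitochondrial stress can also reach ATF4. Of 12 genes (mitochondrial chaperones, proteases, prohibitins and the fusion protein Opa1), 8 fell (against 30.82% of all genes tested), 2 rose (against 34.01%) and 2 were not called, with a median log2 fold change of -0.34. Hspe1 and Hspd1, the subunits of the chaperonin, fell by 1.14 and 0.95 on the log2 scale (limma adjusted p = 6.02e-11 and 5.01e-12). Their neighbouring start sites share exon bases, and 6 and 5 pseudogenes are named after them, so their reads may be shared. The chaperone Hspa9 fell from 421 ± 5.33 to 244 ± 2.93 FPKM (-0.79, limma adjusted p = 5.65e-12) and the protease Lonp1 from 99.6 ± 2.32 to 59.3 ± 1.30 (-0.75, limma adjusted p = 1.3e-10).

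Some of the 34 genes, such as Ndrg1, Ddit4 and Stc2, are also known as hypoxia targets, so 15 targets of the hypoxia factor HIF were read beside them. Of these, 10 fell (against 30.82% of all genes tested), 3 rose (against 34.01%) and 2 were not called, with a median log2 fold change of -0.35 (-0.20 with quantile normalization). The glucose transporter Slc2a1 fell from 353 ± 7.27 to 171 ± 4.02 FPKM (-1.04, limma adjusted p = 2.46e-12), the carbonic anhydrase Car9 and the oxygen sensor Egln1 fell by 0.76 and 0.62 (limma adjusted p = 8.24e-09 and 6.74e-10), and the peptide hormone Adm rose from 516 ± 6.18 to 1012 ± 6.23 FPKM (0.97, limma adjusted p = 4.37e-13). None of these 4 genes overlapped between the groups, and 13 of the 15 did not (59.23% of all genes tested). Vegfa belongs to this list and to the ATF4 list.

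**Figure D5:**
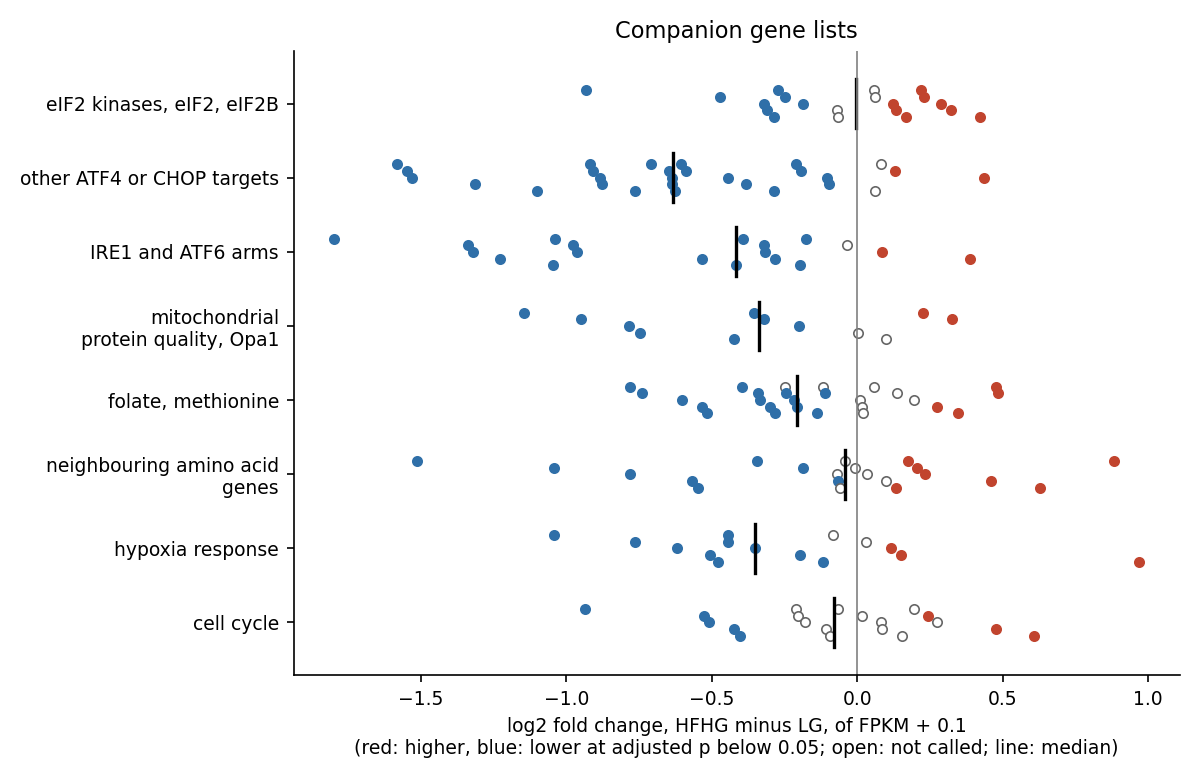
Log2 fold change (HFHG minus LG, of FPKM + 0.1) of each gene above the filter in the 8 companion lists. Red points rose and blue points fell at an adjusted p below 0.05 by limma, open points were not called, and the line is the median of the list. The medians run from -0.63 (other ATF4 or CHOP targets) to 0.00 (eIF2 kinases, eIF2 and eIF2B).

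The spread between replicates was small. Over the 33 genes the median coefficient of variation was 3.53% within HFHG and 3.85% within LG, against 4.93% and 5.91% over all genes tested. LG replicate 4 was the highest LG library in 16 of the 33 genes and the lowest in 6. LG replicate 2 was the lowest in 15, and HFHG replicate 2 was the lowest HFHG library in 15. Without LG replicate 4, none of the 33 genes changed sign.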

How the data were processed

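mRNA of 4 HFHG and 4 LG cultures was sequenced. The authors aligned reads with HISAT2 2.1.0 to mm10, per the submitters' processing notes, and deposited FPKM per gene. The library kit was stranded, and the counting program, its annotation and its use of the strand are not given in the sources used here. Whole reads were recovered from the FPKM for 19301 of 19301 genes (tolerance 0.0001). Genes with at least 0.5 FPKM in at least 4 of 8 libraries were fitted as log2(FPKM + 0.1) with limma 3.58.1 (R 4.3.3), with Benjamini-Hochberg adjustment over 11710 genes. Companion genes below the filter had an exact permutation test. Members and companion lists were chosen with earlier results of these data known. Named genes are all 34 members, up to 4 genes per companion list with the largest called change, and Eif2ak1, Eif2ak2, Atf3, Gdf15, Slc7a11, Hspa5, Xbp1, Tyms and Mki67 whatever their values. Markers were named from their lists. Prodh, Slc7a3, Mars1, Vegfa, Mcm3, Mcm4, Mcm6, Mcm7, Cdk1 and E2f1 were named after their values were seen. 1 planned gene of the folate and methionine list was left out of the list, the counts and the named genes late in the work, for a reason that does not depend on its values. Alternatives were other pseudocounts, filters and scalings, a replicate block, voom on recovered reads, and leaving out each library. Gene positions are from GENCODE M21 (GRCm38). The scripts were tested on simulated data.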

Additional observations from a re-analysis of the deposited data

Results flagged for a closer look

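In a group of 4 libraries, a value was picked out where its gap to the nearest other value was a larger part of the whole range of the group than Dixon's 95% limit for 4 values allows. Of 146 groups (73 genes in HFHG and in LG), 11 passed this limit, and chance passes about 1 in 20. The value lay above its group for Atf5 in HFHG replicate 2 (192 FPKM, others 181.5 to 183), Cebpg in LG replicate 1 (17.5, others 16.0 to 16.2), Eif2s1 in LG replicate 2 (35.2, others 32.5 to 32.9), Psph in HFHG replicate 3 (9.43, others 8.30 to 8.48) and Shmt2 in HFHG replicate 3 (32.2, others 30.9 to 31.0).

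LG replicate 4 was above the other LG libraries for Stc2 (37.3 FPKM, others 34.2 to 34.5), Slc2a1 (363, others 348 to 349.9) and Car9 (34.5, others 30.3 to 31.0). The value lay below its group for Ndrg1 in LG replicate 2 (80.4, others 84.2 to 84.4), Pdia4 in HFHG replicate 1 (148, others 153.9 to 154.9) and Hspe1 in HFHG replicate 4 (65.4, others 70.9 to 71.3).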

How the results depend on the processing

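The number of genes called in HFHG versus LG was 7592, and 7199 to 7839 under the alternatives (7342 with the replicate block, in which libraries with the same number are paired). Correlations between the residuals of libraries with the same number were -0.021, -0.010, -0.006 and -0.074. Leaving out 1 library gave 7057 to 7480.

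No member changed sign in 559 values under alternatives. Counts of members past the adjusted p of 0.05 describe the fit over all genes and are no test of the members, which were selected on this contrast. The number of members higher in HFHG was 5 (against 34.01% of all genes tested), and 3 with no filter on low values and with quantile normalization, and 3 to 5 when single libraries were left out. The number lower was 24 to 27 throughout (against 30.82% of all genes tested). Members no longer past it in some setting were Cebpb, Jdp2, Aldh18a1, Eif2ak4 and Fgf21, and Mthfd1 passed it only with quantile normalization. The median log2 fold change of the members was -0.643, and -0.5742 with no filter, -0.4985 with a pseudocount of 1, -0.5725 with quantile normalization, -0.5836 after rescaling to the same sum, and -0.6631 to -0.6043 without single libraries.

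The companion genes named by plan, without those named after their values were seen, had 646 values. Of these, 620 kept their direction and their side of 0.05, 23 no longer passed it, 2 newly passed it and 1 changed sign. That was Xbp1 (-0.0359, and 0.0235 after rescaling to the same sum). The cause was not tested. Low read counts limit Fgf21, Shmt1 and Cbs.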
